A study of Homo sapiens with 12 samples.

Results

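Nuclear genes for the subunits of the 5 oxidative phosphorylation (OXPHOS) complexes were examined in RNA sequencing libraries from 2 perturbation experiments. The genes were taken by symbol, as all rows named NDUFA, NDUFB, NDUFC, NDUFS or NDUFV with a number, NDUFAB1, SDHA to SDHD, UQCR with letters or digits, CYC1, COX4 to COX8, or ATP5. The rule found 88 of the 18665 genes listed in both tables. Of these, 37 belong to complex I, 4 to complex II, 10 to complex III, 18 to complex IV and 19 to complex V. The study asked how the aldehyde dehydrogenase ALDH1A1 and the transcription factor ZBTB7B act on glycolysis in tumor cells. The label of all 12 libraries is HT29, an established line of human colon carcinoma cells. CM10 libraries (n = 3) came from cells exposed to CM10, a small molecule that inhibits ALDH1A enzymes, and CTRL_CM10 libraries (n = 3) are the controls of that experiment. shZBTB7B libraries (n = 3) came from cells with a short hairpin RNA that targets ZBTB7B, set against the n = 3 libraries labelled CTRL_shZBTB7B. The labels give no clone, no hairpin sequence and no culture for a replicate, so a p-value here measures library-to-library spread, part or all of which may be technical.

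In the inner mitochondrial membrane, complexes I and II pass electrons from NADH and from succinate to ubiquinone, complex III passes them on to cytochrome c, and complex IV passes them to oxygen. Complexes I, III and IV pump protons as they do so, and complex V, the ATP synthase, lets the protons flow back and makes ATP. Most subunits are encoded in the nucleus and imported, whereas a small core of complexes I, III, IV and V is encoded in mitochondrial DNA. Carcinoma cell lines can draw ATP from both glycolysis and OXPHOS.

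Levels were deposited as TPM, transcript abundance scaled to a total of 1000000 in each library, so sequencing depth is unknown and a zero is called "listed at 0" and no more. The tables hold 0 genes of the mitochondrial genome. Genes above 0 numbered 8493 to 13051 in CM10 libraries, 13237 to 14627 in CTRL_CM10, 9597 to 14354 in shZBTB7B and 15969 to 16245 in CTRL_shZBTB7B. CDX2, a defining marker of colon epithelium, was listed at 0 in 8 of 12 libraries and was at most 5.32 TPM. Other markers varied between libraries. EPCAM had 0 TPM in CM10 replicates 1 and 2 and 192.3 TPM in CTRL_shZBTB7B replicate 3. KRT20 had 0 TPM in CM10 replicate 2 and 59.4 TPM in shZBTB7B replicate 1. The 9 colon and HT29 markers summed to 17.7 to 73.7 TPM in CM10 and 42.7 to 1080.4 TPM in CTRL_CM10. Their sums were 333 to 1625 TPM in shZBTB7B and 61.7 to 2012 TPM in CTRL_shZBTB7B. DES, a smooth muscle marker, reached 16958 TPM in CTRL_shZBTB7B replicate 2, and PGA3, of gastric chief cells, was 21770.2 TPM in shZBTB7B replicate 2 and 32673 TPM in CTRL_CM10 replicate 3. ZBTB7B, the target of the hairpin, had 2.55, 5.97 and 0 TPM in shZBTB7B libraries, against 22.3, 25.1 and 25.4 TPM in CTRL_shZBTB7B libraries. shZBTB7B replicate 2 stood apart from its group. Over all 18665 genes its Spearman correlation was 0.419 and 0.447 with the other 2 shZBTB7B libraries, which had 0.696 with each other, and 0.791 to 0.820 with the 3 CTRL_shZBTB7B libraries. Over the 88 OXPHOS genes it was 0.448 and 0.594 with its own group and 0.898 to 0.919 with the controls, while shZBTB7B replicates 1 and 3 had only 0.419 with each other. The calls of that experiment are therefore also given without replicate 2. MTRNR2L genes, nuclear copies of a mitochondrial ribosomal RNA, took 0.71, 2.78 and 0.28% of the total in the CM10 group, against 5.62, 73.8 and 45.98% in CTRL_CM10 libraries. They took 0.31, 29.9 and 0.91% in shZBTB7B replicates 1 to 3, against 10.4, 4.78 and 2.44% in CTRL_shZBTB7B libraries. What part these differences between libraries have in the results was not tested.

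The median TPM of the 88 genes was 34.6, 22.2 and 5.5 in CM10 replicates 1 to 3, against 158, 50.8 and 96.3 in CTRL_CM10 replicates 1 to 3. In the second experiment it was 50.7, 287 and 53.1 in shZBTB7B libraries, against 135, 238 and 161 in CTRL_shZBTB7B libraries. All 3 CM10 medians lay below the lowest CTRL_CM10 median, while shZBTB7B replicate 2 lay above every CTRL_shZBTB7B library. In bulk RNA, fewer cells of a type and less RNA per cell cannot be told apart. Among all 18665 genes of a library, the median OXPHOS gene stood at the percentile of 90.7, 87.3 and 73.4 in CM10, against 96.5, 96.9 and 96.9 in CTRL_CM10, and of 92.3, 98.4 and 89.3 in shZBTB7B, against 96.01, 97.3 and 95.6 in CTRL_shZBTB7B. The subunit genes were thus among the more abundant transcripts in all 12 libraries, least so in CM10 replicate 3.

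Some OXPHOS genes were listed at 0 in libraries where others of the same complex were not. In CM10 replicate 3, which had the most zeros, many partners were low too. The median TPM of complexes I to V there was 7.3, 15.7, 7.17, 12.3 and 0. Of the 88 genes, 6, 21 and 36 were listed at 0 in CM10 replicates 1 to 3, against 4, 6 and 4 in CTRL_CM10. The count was 11, 5 and 16 in shZBTB7B libraries, against 4, 2 and 4 in CTRL_shZBTB7B. Of the 72 genes that averaged at least 50 TPM over the 12 libraries, 0, 14 and 29 were listed at 0 in CM10 replicates 1 to 3, against 0, 1 and 0 in CTRL_CM10. Among all 1888 genes of that abundance the share at 0 was 1.75%, 10.3% and 19.5% in CM10 replicates 1 to 3, and for the OXPHOS genes it was 0%, 19.4% and 40.3%. In shZBTB7B replicates 1 to 3 it was 7.57%, 0.636% and 5.72%, and for the OXPHOS genes 9.72%, 1.39% and 12.5%. The cut used the mean over all 12 libraries, so genes could pass through the libraries where they were high. The cut itself thus shapes these shares, and they are a description. COX8C and ATP5MGL were listed at 0 in all 12 libraries. Over the 88 genes the Spearman correlation of CM10 replicate 3 with the 3 CTRL_CM10 libraries was -0.0642 to 0.0503, and that of CM10 replicate 1 was 0.639 to 0.665.

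**Figure D1:**
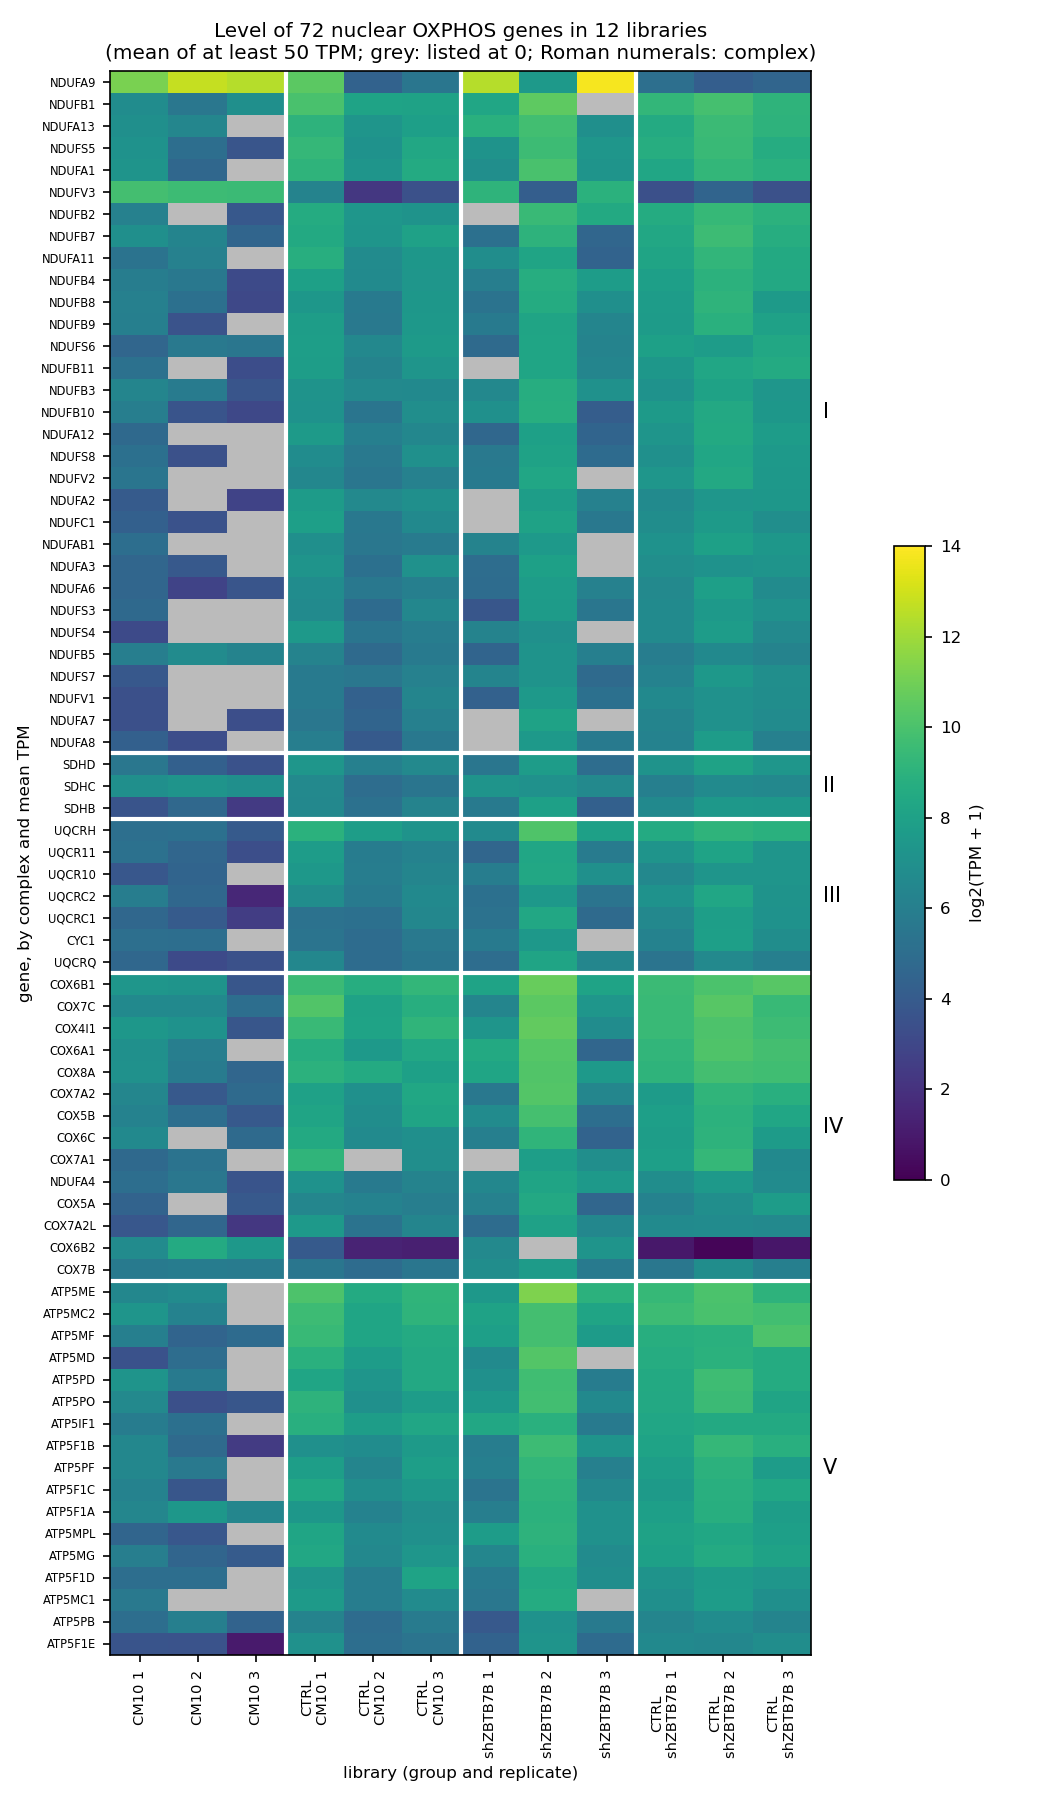
Level of each of the 72 nuclear OXPHOS genes that averaged 50 TPM or more (rows, by complex and by mean TPM) in each of the 12 libraries (columns, by group and replicate), as log2(TPM + 1) on a color scale, with values listed at 0 in grey. NDUFA9 and NDUFV3 stand out as bright in the 3 CM10 libraries and in shZBTB7B replicates 1 and 3, most other rows are darker there, and CM10 replicate 3 has 29 grey cells.

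With CM10, most OXPHOS genes were lower than in the controls and only a few were higher. Of the 88 genes, 83 passed the filter on low values (1 TPM or more in 3 or more of 6 libraries), and 5 did not (ATP5MGL, COX4I2, COX6A2, COX8C and UQCRHL). At an adjusted p under 0.05, 36 of 83 fell and 3 rose, and 44 did not pass. Over all 12529 genes tested, 18.3% fell and 13.6% rose, against 43.4% and 3.61% of the OXPHOS genes. In 61 of 83 genes every CM10 library lay below every CTRL_CM10 library, against 28.9% of all genes tested, and in 6 every CM10 library lay above, against 18.5% of all genes. The median log2 fold change of the 83 genes was -2.84, and over all genes tested it was -1.004, on the log2(TPM + 1) scale, which understates changes of low genes.

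The number of calls depended on the scaling, the treatment of low values and single libraries. In both directions together, 47% of the OXPHOS genes and 31.9% of all genes were called. Quantile normalization gave 64 calls (77.1%, against 34% of all genes) and removal of the MTRNR2L genes 72 (86.7%, against 54.9%). A pseudocount of 0.1 gave 11 (13.3%, against 15.7%) and the fit without the filter on low values 2 (2.27%, against 4.57%), so under these the OXPHOS share was not above that of all genes. When all genes with an Alu-like segment in their transcript (described with NDUFA9) were removed and the rest rescaled, limma called 0 of 70 remaining OXPHOS genes (4.41% of all genes), 19 had an unadjusted p under 0.05, and their median log2 fold change was -1.87, against -0.67 over the 9936 genes tested. Leaving out single libraries gave 16 calls without CTRL_CM10 replicate 1 (19.3%, against 18.9% of all genes), 20 without CM10 replicate 3 (24.1%, against 20.4%) and 22 without CM10 replicate 2 (26.5%, against 15.7%). It gave 35 without CTRL_CM10 replicate 3 (42.2%, against 17.4%), 46 without CTRL_CM10 replicate 2 (55.4%, against 27%) and 51 without CM10 replicate 1 (61.4%, against 50.7%). In each of the 6 fits with a library left out all 39 called genes kept their direction.

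**Figure D2:**
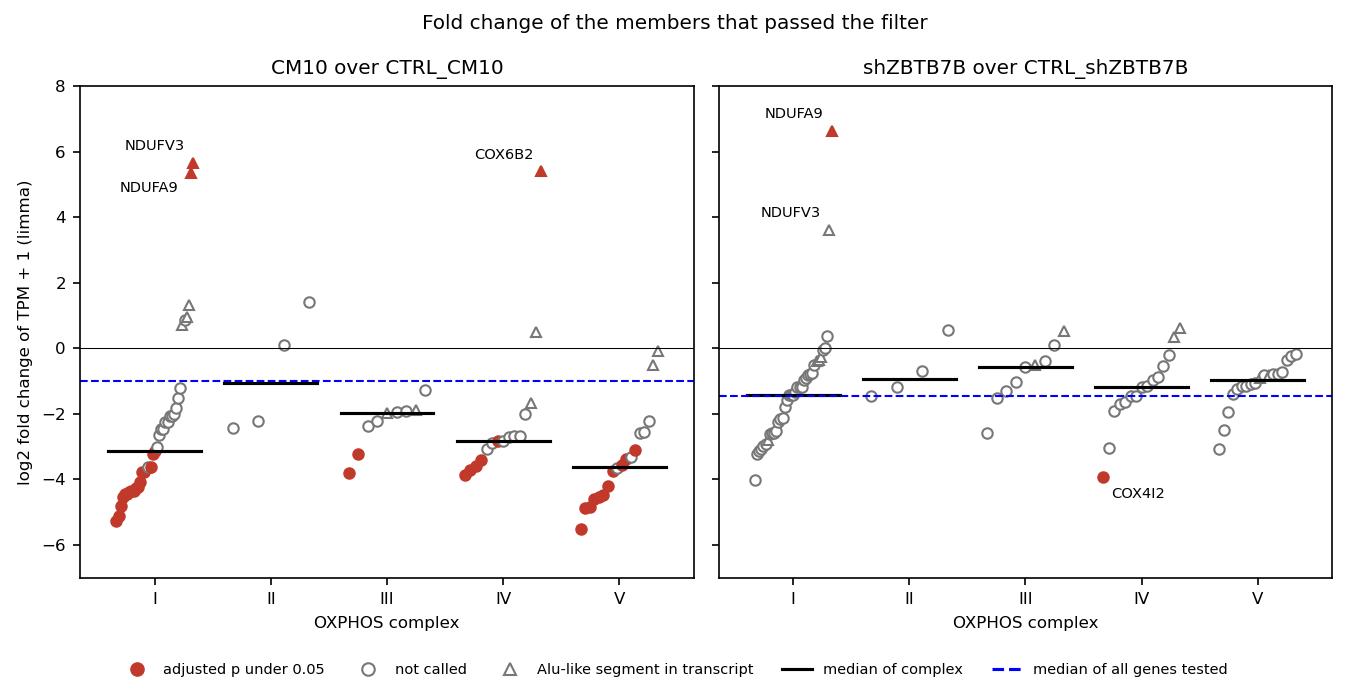
Log2 fold change of TPM + 1 (y axis) of each OXPHOS gene that passed the filter, by complex (x axis), for CM10 over CTRL_CM10 on the left and shZBTB7B over CTRL_shZBTB7B on the right. Filled red symbols have an adjusted p under 0.05 (39 genes with CM10, 2 with shZBTB7B), triangles mark genes with an Alu-like segment (NDUFB6 was not searched and is drawn as a circle), black bars are medians per complex and the dashed line is the median of all genes tested (-1.004 on the left, -1.45 on the right).

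Complex I, the NADH dehydrogenase, had 18 of 37 genes that fell (48.6%, against 18.3% of all genes) and 2 that rose (5.41%, against 13.6%). Its median log2 fold change was -3.13. Of its 7 nuclear core subunits, which carry the flavin and the iron-sulfur clusters, 6 fell. NDUFV1, which binds NADH and the flavin, had 9.68, 0 and 0 TPM in CM10 libraries, against 53.95, 19.5 and 80.3 TPM in CTRL_CM10 libraries. CM10 replicate 1 had a low level and the other 2 were listed at 0, so the groups did not overlap (log2 fold change -4.36, SE 1.04, adjusted p = 0.00671). NDUFS7, next to the site where ubiquinone binds, had 13.5, 0 and 0 TPM in CM10 libraries, against 52.5, 45.6 and 69.7 TPM in CTRL_CM10 libraries (log2 fold change -4.52, SE 1.05, adjusted p = 0.00576). NDUFS1, the largest nuclear core subunit, was the exception. It had 12.6, 12.1 and 9.01 TPM in CM10 libraries, against 6.78, 4.44 and 4.79 TPM in CTRL_CM10 libraries, every CM10 value above every control, and did not pass the test (log2 fold change 0.96, adjusted p = 0.371).

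Of the 30 accessory subunits of complex I, which surround the core, 12 fell and 2 rose, while over all genes 18.3% fell and 13.6% rose. NDUFS4, an accessory subunit whose loss is a known cause of Leigh syndrome, had 8.01, 0 and 0 TPM in CM10 libraries, against 190.2, 42.8 and 59.7 TPM in CTRL_CM10 libraries. Its fold change was the second lowest of the 83 genes (log2 fold change -5.26, SE 1.03, adjusted p = 0.00346). NDUFA12, another accessory subunit, had 27.1, 0 and 0 TPM in CM10 libraries, against 200.3, 63.8 and 88.5 TPM in CTRL_CM10 libraries (log2 fold change -5.11, SE 1.17, adjusted p = 0.00539). NDUFA2, a subunit of the NADH-oxidizing arm, had 15.1, 0 and 6.07 TPM in CM10 libraries, against 205, 95.1 and 126 TPM in CTRL_CM10 libraries (log2 fold change -4.81, SE 1.06, adjusted p = 0.00472). The annotated exons of NDUFA2 share 120 bases with TMCO6 on the opposite strand, so its reads cannot be assigned with certainty if strand was not used. In all 3 genes each CM10 library lay below each control. NDUFA2 lost its call without CM10 replicate 2 (adjusted p = 0.0581). NDUFB1, a small subunit of the membrane arm and after NDUFA9 the most abundant complex I gene over the 12 libraries, had 109, 46.6 and 126 TPM in CM10 libraries, against 1004, 273 and 268 TPM in CTRL_CM10 libraries. The groups did not overlap, but it did not pass the test (log2 fold change -2.27, adjusted p = 0.129).

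The 2 complex I genes that rose were NDUFA9 and NDUFV3. NDUFA9 (chr12:4758261-4803483, plus strand, GRCh37), an accessory subunit related to short-chain dehydrogenases, had 2321, 7007 and 5550.5 TPM in CM10 libraries, against 1417, 19.99 and 43.8 TPM in CTRL_CM10 libraries. All CM10 values were higher, yet CTRL_CM10 replicate 1 was far above the other 2 controls (log2 fold change 5.35, SE 1.64, adjusted p = 0.0227). NDUFA9 made up 30.2, 64.4 and 73.2% of the summed TPM of all 88 genes in CM10 libraries, against 6.32, 0.26 and 0.34% in CTRL_CM10. Its call was lost without CM10 replicate 2, CTRL_CM10 replicate 2 or CTRL_CM10 replicate 3 (adjusted p = 0.059, 0.105 and 0.157). NDUFV3 (chr21:44299754-44333414, plus strand, GRCh37), a small accessory subunit of the NADH-oxidizing arm, had 892, 781 and 746 TPM in CM10 libraries, against 75.5, 3.79 and 9.9 TPM in CTRL_CM10 libraries (log2 fold change 5.67, SE 1.17, adjusted p = 0.0037). The 3 CM10 values lay close together, and CTRL_CM10 replicate 1 was again the highest control.

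NDUFA9 and NDUFV3, with COX6B2 of complex IV, were the 3 OXPHOS genes that rose, and each carries a stretch like the Alu repeat in the 3′ UTR of its annotated transcript. Alu elements are short retrotransposed repeats related to the signal recognition particle RNA, and they occur in very many copies in human genes. The GENCODE canonical transcripts were searched with the Alu-derived part of the BCYRN1 transcript, the first 120 bases, for segments of at least 60 bases at 75% identity or more. Of 17998 genes searched, 18.7% had one, and of 87 OXPHOS genes searched, 14 had one (16.1%). The longest segment in NDUFA9 was 115 bases, in NDUFV3 116 bases and in COX6B2 114 bases. NDUFS1 and COX7B share the feature and did not pass the test.

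The counts were taken separately for genes with and without such a segment. Of the 13 tested OXPHOS genes with an Alu-like segment, 3 rose and 1 fell (NDUFA3), with a median log2 fold change of 0.50. The exons of NDUFA3 share 150 bases with TFPT on the opposite strand. Of the 69 tested and searched OXPHOS genes without one, limma found 0 that rose, also at an unadjusted p under 0.05, and 35 that fell, and 2 had a fold change above 0, with a median of -3.24. Over all genes tested, 41.5% of 3035 with a segment rose and 3.06% fell, while 4.24% of 9310 without one rose and 23.5% fell. Genes with an Alu-like segment made up 65.2%, 66.6% and 71.0% of the CM10 libraries, against 13.8%, 2.55% and 4.13% in CTRL_CM10. The part of this share in the lower OXPHOS genes was not tested. The transcripts also differ in length: the canonical OXPHOS transcripts had a median of 756 bases, against 3087 bases over all genes. Across 82 OXPHOS genes the Spearman correlation of transcript length with the CM10 fold change was 0.55, across the 69 without a segment it was 0.33, and across 12345 genes it was 0.49. Genes share libraries and are not independent, so these correlations are a description.

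**Figure D3:**
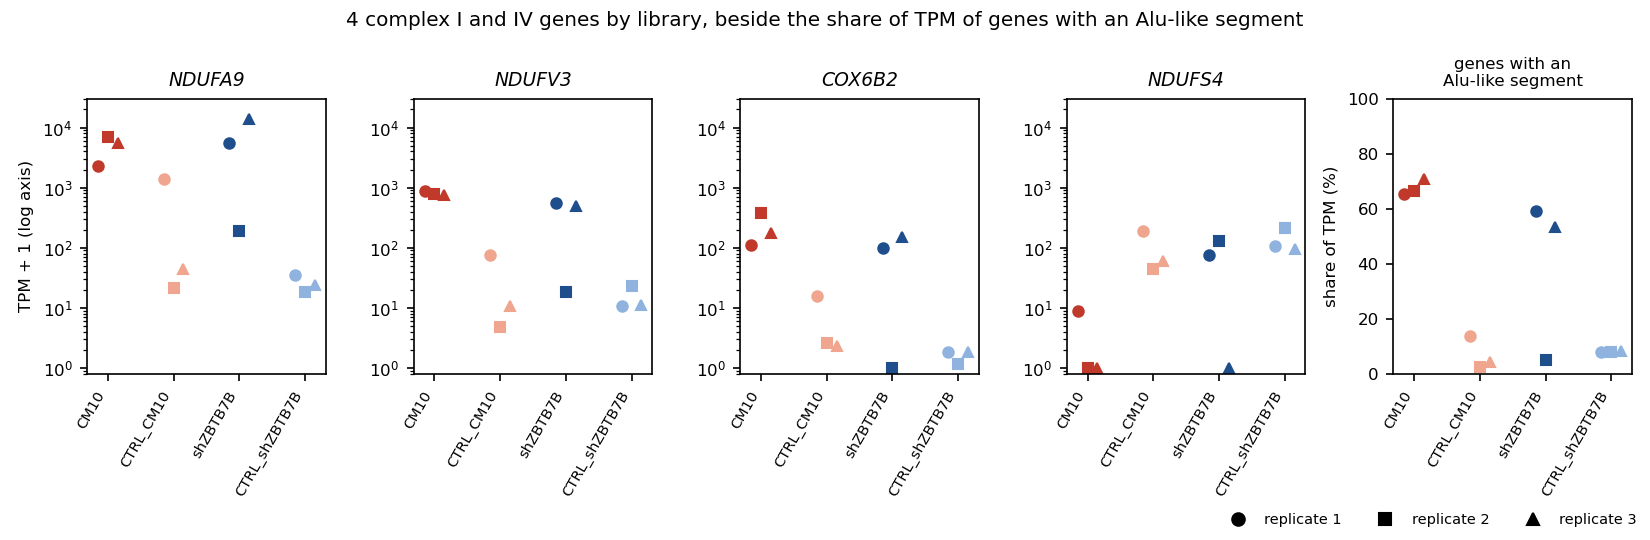
TPM + 1 (log axes) of NDUFA9, NDUFV3, COX6B2 and NDUFS4 in each library by group, and, on a linear axis at the right, the share of TPM in percent taken by all genes with an Alu-like segment; symbols are replicates. NDUFA9, NDUFV3 and COX6B2 are high in the libraries where that share is 53.4% to 71.0%, and NDUFS4 is low or listed at 0 in the 3 CM10 libraries and in shZBTB7B replicate 3.

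Complex II, the succinate dehydrogenase, had 0 of 4 genes called by limma, with a median log2 fold change of -1.06. Of the 4 genes, 2 had an unadjusted p under 0.05, as did 47.7% of all genes tested. SDHA, the flavoprotein that oxidizes succinate, had 23.5, 8.99 and 20.9 TPM in CM10 libraries, against 20.6, 7.8 and 21.5 TPM in CTRL_CM10 libraries, with overlapping groups (log2 fold change 0.11, adjusted p = 0.927). SDHB, the iron-sulfur subunit, had 11.5, 26.02 and 4.24 TPM in CM10 libraries, against 93.5, 36.99 and 76.2 TPM in CTRL_CM10 libraries (log2 fold change -2.43, adjusted p = 0.0612). SDHD, a membrane anchor, had 46.2, 18.6 and 10.4 TPM in CM10 libraries, against 160.3, 68.3 and 94.8 TPM in CTRL_CM10 libraries (log2 fold change -2.22, adjusted p = 0.0864). Both lay below the controls in every library without passing the test. SDHC, the other anchor, had 125, 148 and 126 TPM in CM10 libraries, against 94.02, 30.8 and 42.2 TPM in CTRL_CM10 libraries. It was higher in 3 of 3 libraries and also did not pass (log2 fold change 1.40, SE 1.02, adjusted p = 0.273). Complex II has no subunit encoded in mitochondrial DNA, and its 4 genes lay on both sides of 0.

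Complex III, the cytochrome bc1 complex, had 2 of 9 tested genes that fell (22.2%, near the 18.3% of all genes) and 0 that rose, with a median log2 fold change of -1.98. UQCRH, the hinge protein, had 33.4, 34.5 and 14.4 TPM in CM10 libraries, against 486, 219 and 146 TPM in CTRL_CM10 libraries (log2 fold change -3.24, SE 1.04, adjusted p = 0.0273). That call was lost without CM10 replicate 2 or replicate 3 (adjusted p = 0.0956 and 0.0965). UQCR10, another small subunit, also fell (log2 fold change -3.81, adjusted p = 0.0195). UQCR11 had 35.9, 24.1 and 9.41 TPM in CM10 libraries, against 214, 58.3 and 73.97 TPM in CTRL_CM10 libraries and did not pass (log2 fold change -2.21, adjusted p = 0.0907). The redox subunits CYC1 and UQCRFS1 and the core proteins UQCRC1 and UQCRC2 did not pass either, at log2 fold changes of -1.28 to -2.39. UQCRHL, a near-identical copy of UQCRH, was listed above 0 only in CM10 replicate 3, shZBTB7B replicate 1 and CTRL_shZBTB7B replicate 2, and reads of the pair cannot be assigned with certainty.

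Complex IV, the cytochrome c oxidase, had 5 of 15 tested genes that fell (33.3%, against 18.3% of all genes) and 1 that rose (6.67%, against 13.6%). Its median log2 fold change was -2.82. Its most abundant gene, COX6B1, which lies at the contact of the dimer, had 162, 149 and 12.3 TPM in CM10 libraries, against 755, 422 and 619 TPM in CTRL_CM10 libraries. COX7C, a small membrane subunit, had 101, 99.4 and 32.6 TPM in CM10 libraries, against 1188, 266 and 439 TPM in CTRL_CM10 libraries. In both genes CM10 values lay below all controls and neither passed (log2 fold changes -3.08 and -2.89, adjusted p = 0.0644 and 0.0645). COX5A, COX6C, COX6A1, NDUFA4L2 and COX7A2L, the last a factor that joins complexes III and IV into supercomplexes, fell at log2 fold changes of -3.86 to -2.84.

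Several complex IV subunits exist as a common isoform and one restricted to certain tissues, and COX4I2, COX6A2 and COX8C were at most 24.5 TPM in the 12 libraries. COX4I1, the common form of the regulatory subunit 4, had 170.2, 142 and 12.4 TPM in CM10 libraries, against 725, 277 and 575 TPM in CTRL_CM10 libraries (log2 fold change -2.82, SE 1.25, adjusted p = 0.0839), while COX4I2, the lung and hypoxia form, had 0, 0 and 0 TPM in CM10 libraries, against 2.23, 0 and 13.9 TPM in CTRL_CM10 libraries and was not tested. COX6A1 had 128, 63.5 and 0 TPM in CM10 libraries, against 419.7, 180.2 and 334 TPM in CTRL_CM10 libraries (log2 fold change -3.86, SE 1.43, adjusted p = 0.047), and the heart and muscle form COX6A2 was listed at 0 in all 6 libraries. COX7A2 had 85.2, 14.3 and 28.1 TPM in CM10 libraries, against 261, 127 and 320.3 TPM in CTRL_CM10 libraries, and its muscle form COX7A1 had 26.3, 38.8 and 0 TPM in CM10 libraries, against 578, 0 and 121 TPM in CTRL_CM10 libraries. Neither passed (log2 fold changes -2.71 and -2.00, adjusted p = 0.0591 and 0.359), and COX7A1 was listed at 0 in 1 library of each group. COX8A had 134, 54.7 and 24.02 TPM in CM10 libraries, against 519, 380.4 and 245 TPM in CTRL_CM10 libraries (log2 fold change -2.67, adjusted p = 0.072), and COX8C, its testis form, was listed at 0 throughout. NDUFA4, now counted as a complex IV subunit, had 31.8, 46.03 and 11.2 TPM in CM10 libraries, against 140.5, 53.7 and 75.8 TPM in CTRL_CM10 libraries (log2 fold change -1.66, adjusted p = 0.186). Its hypoxia-induced relative NDUFA4L2 had 0, 0 and 3.49 TPM in CM10 libraries, against 41.7, 6.98 and 28.99 TPM in CTRL_CM10 libraries and fell (log2 fold change -3.72, SE 0.97, adjusted p = 0.0105). Its exons share 33 bases with SHMT2 on the opposite strand. The calls of COX6A1 and NDUFA4L2 were lost without CTRL_CM10 replicate 1 (adjusted p = 0.117 and 0.0638), and that of COX6A1 also without CM10 replicate 3 or CTRL_CM10 replicate 2 (adjusted p = 0.337 and 0.0507). COX7B, for which only the common form is listed, had 53.1, 58.3 and 55.04 TPM in CM10 libraries, against 44.5, 29.7 and 44.8 TPM in CTRL_CM10 libraries, with the CM10 values above the controls by little (log2 fold change 0.50, adjusted p = 0.68).

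COX6B2 (chr19:55860674-55866087, minus strand, GRCh37), the testis form of COX6B, was the one that rose among the 3 restricted isoforms tested. It had 108, 375 and 173 TPM in CM10 libraries, against 14.6, 1.61 and 1.33 TPM in CTRL_CM10 libraries, with no overlap of the groups (log2 fold change 5.40, SE 1.02, adjusted p = 0.00344). In CM10 replicates 2 and 3 it was above COX6B1, the partner that is otherwise the more abundant of the pair in both control groups. In the other experiment COX6B2 had 96.3, 0 and 152 TPM in shZBTB7B libraries, against 0.85, 0.16 and 0.81 TPM in CTRL_shZBTB7B libraries. shZBTB7B replicates 1 and 3 were high and replicate 2 was listed at 0, and the gene did not pass the filter there.

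**Figure D4:**
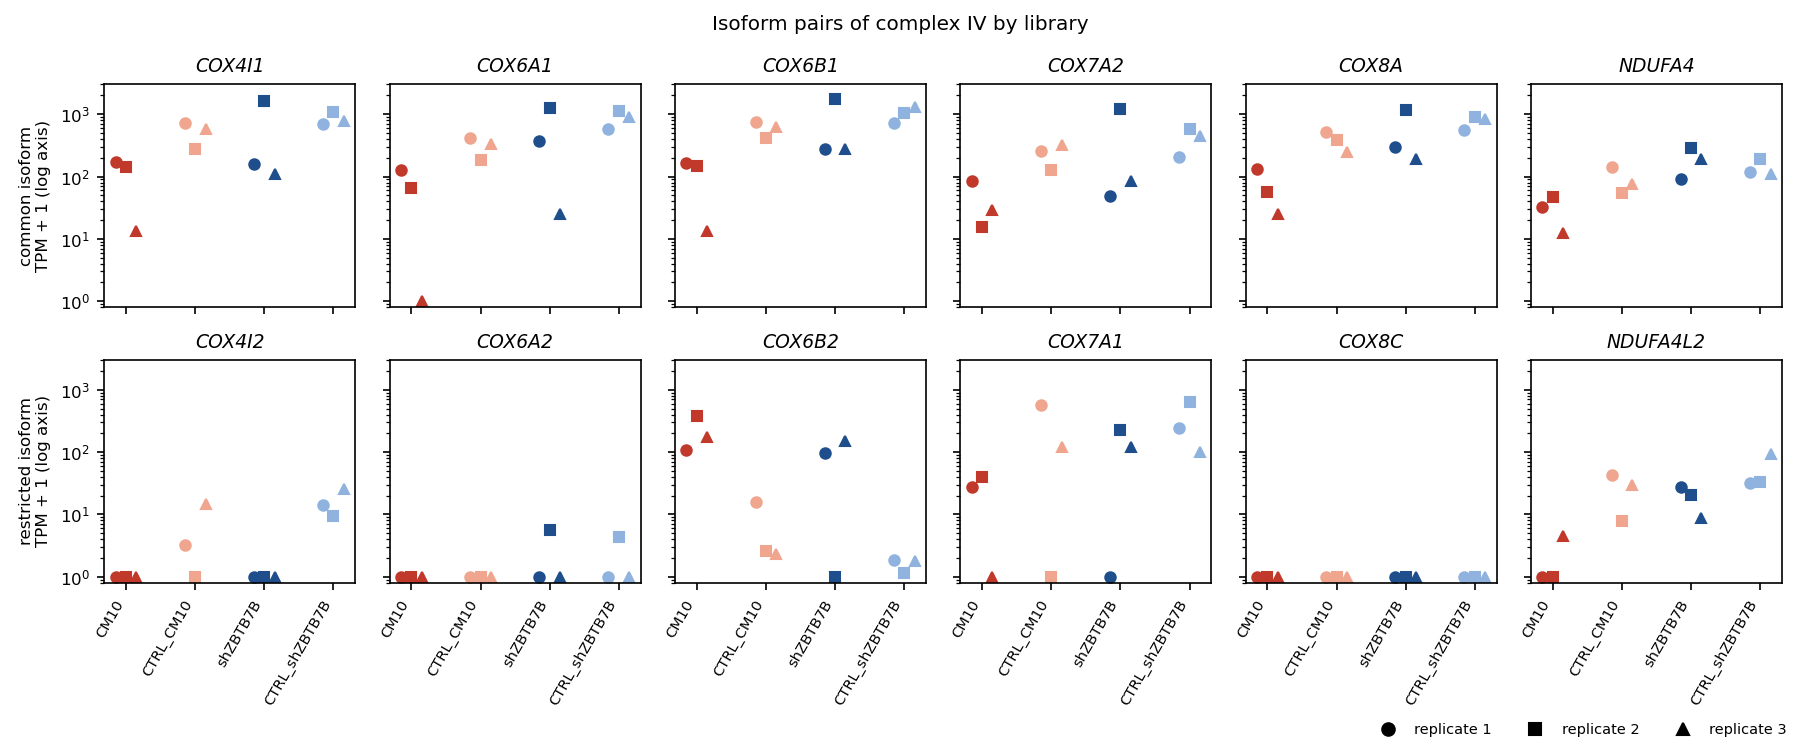
TPM + 1 (log axes) of the common isoform (top) and the restricted isoform (bottom) of 6 complex IV subunits, with 1 symbol per library and groups along the x axis; values listed at 0 lie at 1. COX6B2 is above 90 TPM in the 3 CM10 libraries and in shZBTB7B replicates 1 and 3 and at most 14.6 TPM elsewhere, while COX6A2 is at most 4.65 TPM and COX8C is listed at 0.

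Complex V, the ATP synthase, had the largest share of genes that fell, 11 of 18 tested (61.1%, against 18.3% of all genes). It had 0 that rose (against 13.6% of all genes) and a median log2 fold change of -3.62, the lowest of the 5 complexes in this fit. ATP5MD, a small membrane subunit linked to dimers of the enzyme, had 10.7, 31.3 and 0 TPM in CM10 libraries, against 476, 215 and 353 TPM in CTRL_CM10 libraries (log2 fold change -5.52, SE 1.18, adjusted p = 0.00425). Its exons share 16 bases with TAF5 on the opposite strand. ATP5MPL, another small membrane subunit, had 22.6, 12.8 and 0 TPM in CM10 libraries, against 303, 104 and 128 TPM in CTRL_CM10 libraries (log2 fold change -4.54, SE 1.14, adjusted p = 0.00878). ATP5MC1, which encodes the c subunit of the rotating ring, had 49.9, 0 and 0 TPM in CM10 libraries, against 198, 61.1 and 106 TPM in CTRL_CM10 libraries (log2 fold change -4.89, SE 1.26, adjusted p = 0.0102). ATP5MC2, a second gene for the same ring protein, had 157, 74.1 and 0 TPM in CM10 libraries, against 781, 301 and 549 TPM in CTRL_CM10 libraries (log2 fold change -4.48, SE 1.49, adjusted p = 0.0316), while the third, ATP5MC3, did not pass (log2 fold change -2.23, adjusted p = 0.1). ATP5ME, the most abundant complex V gene, had 88.3, 106 and 0 TPM in CM10 libraries, against 1077, 375 and 564 TPM in CTRL_CM10 libraries (log2 fold change -4.85, SE 1.47, adjusted p = 0.0219). CM10 replicate 3 was listed at 0 for all 5 genes.

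In the catalytic F1 head, ATP5F1C, ATP5F1D and ATP5F1E fell, while ATP5F1A and ATP5F1B, the alpha and beta subunits, did not pass. The annotated exons of ATP5F1E share 1180 bases with TUBB1 on the opposite strand, so its reads cannot be assigned with certainty if strand was not used. ATP5MF, a membrane subunit that also fell, shares 144 bases with ATP5MF-PTCD1 on the same strand. ATP5F1B had 86.9, 27.1 and 4.41 TPM in CM10 libraries, against 127, 111 and 198 TPM in CTRL_CM10 libraries (log2 fold change -2.58, adjusted p = 0.0763). ATP5F1A had 86.3, 172 and 84.7 TPM in CM10 libraries, against 169, 74.2 and 121 TPM in CTRL_CM10 libraries, with overlapping groups (log2 fold change -0.09), and it is 1 of 2 tested complex V genes with an Alu-like segment, ATP5PB being the other. Of the 4 peripheral stalk genes ATP5PO fell (log2 fold change -3.37, adjusted p = 0.0324). ATP5IF1, the inhibitor that blocks the enzyme when it would consume ATP, had 58.9, 35.4 and 0 TPM in CM10 libraries, against 452, 217 and 310.1 TPM in CTRL_CM10 libraries (log2 fold change -4.60, SE 1.31, adjusted p = 0.0161). The calls of ATP5ME, ATP5MC2, ATP5IF1 and ATP5MPL were lost without CM10 replicate 3, with adjusted p between 0.0545 and 0.22, and those of ATP5MC1, ATP5ME and ATP5MC2 without CTRL_CM10 replicate 1 (adjusted p = 0.0545, 0.0691 and 0.0882). ATP5MC1 also lost its call without CM10 replicate 2 (adjusted p = 0.0548).

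Summed over their nuclear genes, the complexes differed in how the groups compared. The complex V sum was 1187, 747 and 168 TPM in CM10 libraries, against 6396, 2474 and 4229 TPM in CTRL_CM10. The complex III sum was 256, 186 and 76.2 TPM in CM10, against 1295, 518 and 642 TPM in CTRL_CM10, and the complex IV sum was 1205, 1097 and 412 TPM in CM10, against 5601, 2077 and 3377 TPM in CTRL_CM10. For these 3 complexes every CM10 library lay below every control. The complex II sum was 207, 202 and 162 TPM in CM10, against 368, 144 and 235 TPM in CTRL_CM10, with overlap. The complex I sum was 4828, 8641 and 6767 TPM in CM10, against 8779, 2375 and 4292 TPM in CTRL_CM10, again with overlap. Without NDUFA9 and NDUFV3 it was 1615, 853 and 471 TPM in CM10, against 7286, 2351 and 4238 TPM in CTRL_CM10, and the groups no longer overlapped. These sums are values without a test.

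**Figure D5:**
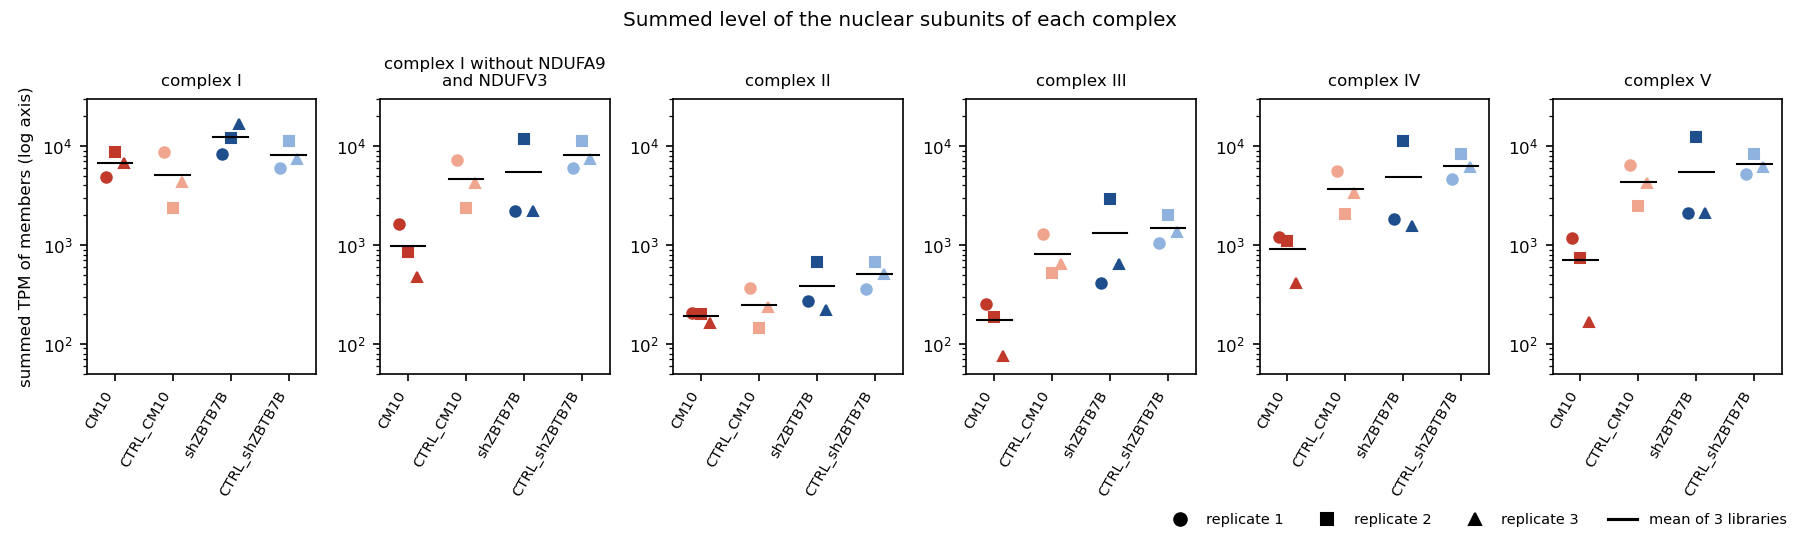
Summed TPM (log axes) of the nuclear genes of complexes I to V in each library, with complex I also shown without NDUFA9 and NDUFV3; symbols are replicates and lines are means of 3 libraries. The CM10 sums of complexes III, IV and V lie below all CTRL_CM10 sums, and shZBTB7B replicate 2 is the highest library for complexes II to V.

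With the ZBTB7B hairpin, few OXPHOS genes passed the test. Again 83 of 88 passed the filter (all but ATP5MGL, COX6A2, COX6B2, COX8C and UQCRHL), of which 1 rose and 1 fell, and 4 had an unadjusted p under 0.05. Over all 13665 genes tested, 0.717% rose, 11% fell and 38.9% had an unadjusted p under 0.05. The groups did not overlap in 1 gene with shZBTB7B above (NDUFA9; 3.02% of all genes) and in 3 with shZBTB7B below (NDUFA11, NDUFA4L2 and COX4I2; 42.4% of all genes).  Their median log2 fold change was -1.16, against -1.45 over all genes tested.

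NDUFA9 had 5572, 189.8 and 14107 TPM in shZBTB7B libraries, against 33.7, 17.3 and 22.7 TPM in CTRL_shZBTB7B libraries. All 3 hairpin libraries were above the controls, replicate 2 by far less than the other 2 (log2 fold change 6.64, SE 1.42, adjusted p = 0.0384). NDUFA9 made up 43.02, 0.48 and 66.2% of the summed OXPHOS TPM in shZBTB7B libraries, against 0.19, 0.06 and 0.11% in CTRL_shZBTB7B. NDUFV3 had 545, 17.5 and 488 TPM in shZBTB7B libraries, against 9.72, 21.8 and 10.2 TPM in CTRL_shZBTB7B libraries, high in replicates 1 and 3 but within the control range in replicate 2, and did not pass (log2 fold change 3.61, SE 1.28, adjusted p = 0.0819). COX4I2 had 0, 0 and 0 TPM in shZBTB7B libraries, against 13.2, 8.55 and 24.5 TPM in CTRL_shZBTB7B libraries (log2 fold change -3.92, SE 0.67, adjusted p = 0.0384). It passed the filter only through the controls, so it could only be lower, and at 0 in a whole group its fitted fold change is no bound. Both calls depended on the setting. The number of calls was 0 with quantile normalization, with the MTRNR2L genes removed, and in 5 of the 6 fits that left out a library. In these settings 2 or 3 OXPHOS genes had an unadjusted p under 0.05. Over all genes tested 0% were called in each of them as well, so the loss of calls was not particular to OXPHOS genes.

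In 67 of the 83 tested genes (80.7%, against 54.8% of all genes tested) shZBTB7B replicates 1 and 3 were both below all 3 controls. In 64 (77.1%, against 12.5%) replicate 2 was in addition at or above the lowest control, and in 53 (63.9%, against 4.43%) replicate 2 was the highest of the 6 libraries. ATP5ME had 177, 2542 and 505 TPM in shZBTB7B libraries, against 677, 1061 and 531 TPM in CTRL_shZBTB7B libraries. COX6B1 had 276, 1725 and 279 TPM in shZBTB7B libraries, against 735, 1055 and 1315 TPM in CTRL_shZBTB7B libraries. COX4I1 had 155, 1602 and 111 TPM in shZBTB7B libraries, against 706, 1076 and 768 TPM in CTRL_shZBTB7B libraries, and UQCRH had 104, 1120.1 and 248 TPM in shZBTB7B libraries, against 379.7, 545 and 475 TPM in CTRL_shZBTB7B libraries. These 4 abundant genes all show that order. SDHD had 43.7, 213 and 30.98 TPM in shZBTB7B libraries, against 143, 266 and 162 TPM in CTRL_shZBTB7B libraries, with replicate 2 inside the control range, and SDHB had 53.4, 249.6 and 18.97 TPM in shZBTB7B libraries, against 101, 178 and 169 TPM in CTRL_shZBTB7B libraries, with replicate 2 above it. SDHA had 21.8, 80.3 and 75.6 TPM in shZBTB7B libraries, against 55.2, 124 and 82.5 TPM in CTRL_shZBTB7B libraries, and SDHC had 149.8, 134 and 96.4 TPM in shZBTB7B libraries, against 64.6, 103 and 91.7 TPM in CTRL_shZBTB7B libraries. NDUFB1 had 310.4, 1478 and 0 TPM in shZBTB7B libraries, against 618, 931 and 542 TPM in CTRL_shZBTB7B libraries, with replicate 3 at 0. For the 4 complex II genes the log2 fold changes were -0.68, -1.17, 0.55 and -1.45 for SDHA, SDHB, SDHC and SDHD, with adjusted p of 0.219 to 0.504.

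Without shZBTB7B replicate 2, which leaves 2 hairpin libraries against 3 controls, 33 of 83 OXPHOS genes fell and 2 rose, and their median log2 fold change was -2.12. Over the 13247 genes then tested, 40% fell and 11.4% rose, so the share of OXPHOS genes that fell was near that of all genes. Each of the 6 libraries was left out in turn, and this fit was singled out because replicate 2 resembled the controls, over these genes too, so the calls of this fit are a description and not a separate test. The 2 that rose were NDUFA9 and NDUFV3, with log2 fold changes of 8.49 and 5.21. Genes with an Alu-like segment made up 59.1%, 4.97% and 53.4% of TPM in shZBTB7B replicates 1 to 3, against 7.84% to 8.40% in CTRL_shZBTB7B. The gastric genes ATP4A and ATP4B, of parietal cells, were at 701 and 774 TPM in shZBTB7B replicate 2 and were listed at 0 in replicates 1 and 3. The part of these differences in the calls was not tested.

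The sums of complexes III, IV and V followed the same order of libraries. The complex I sum followed it only without NDUFA9 and NDUFV3. The complex V sum was 2097, 12382 and 2094 TPM in shZBTB7B libraries, against 5268, 8383 and 6134 TPM in CTRL_shZBTB7B, and the complex IV sum was 1827, 11251 and 1542 TPM in shZBTB7B, against 4598, 8308 and 6180.3 TPM in CTRL_shZBTB7B. The complex III sum was 417, 2949.8 and 641 TPM in shZBTB7B, against 1054, 2021 and 1350.03 TPM in CTRL_shZBTB7B. In these 3 complexes replicates 1 and 3 lay below all controls and replicate 2 above them. The complex I sum without NDUFA9 and NDUFV3 was 2224, 11799 and 2225 TPM in shZBTB7B, against 5977, 11199 and 7338 TPM in CTRL_shZBTB7B, and with them it was 8341, 12006 and 16821 TPM in shZBTB7B, against 6021, 11238 and 7371 TPM in CTRL_shZBTB7B.

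Whether the 2 perturbations differed in their effect on OXPHOS genes was tested with all 12 libraries in one limma fit, as the CM10 effect minus the hairpin effect. It called 0 of 83 OXPHOS genes and 0% of 12814 genes tested, and 4 OXPHOS genes and 1187 of all genes had an unadjusted p under 0.05. The 4 genes, ATP5MPL, NDUFS7, UQCR10 and ATP5ME, had a lower fold change with CM10 than with the hairpin (differences of -4.37, -3.77, -3.89 and -4.60, adjusted p = 0.487 to 0.521). Under the 16 alternatives run for this test 0 OXPHOS genes were called as well. The larger number of calls with CM10 is therefore not a shown difference between the experiments, and the wide errors do not show that the effects were alike. NDUFA9 had a log2 fold change of 5.35 (SE 1.64) with CM10 and 6.64 (SE 1.42) with the hairpin, and the difference of -1.29 had an SE of 2.20 (adjusted p = 0.87).

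Genes that build, feed or regulate the complexes are given for context, from lists chosen with earlier results of these data known. Of 49 assembly factors, which put the complexes together, 12 fell and 7 rose with CM10 (24.5% and 14.3%, near the 18.3% and 13.6% of all genes), with a median log2 fold change of -2.01. COX17, the copper chaperone of complex IV, had 41.8, 0 and 0 TPM in CM10 libraries, against 46.3, 67.5 and 256 TPM in CTRL_CM10 (log2 fold change -4.75, adjusted p = 0.0116). SURF1, another complex IV factor, had 6.32, 0 and 0 TPM in CM10, against 73.9, 24.2 and 37.7 TPM in CTRL_CM10 (log2 fold change -4.43, adjusted p = 0.00483). The 7 that rose were COA7, SCO1, LYRM7, NDUFAF7, COX15, NUBPL and SDHAF4, and 6 of them, all but COX15, carry an Alu-like segment by the same search. The assembly factors UQCC3, NDUFAF5, COX18, COX19, COX20 and ATPAF1 carry one too and did not pass. COA8 also carries one and fell (log2 fold change -3.65, adjusted p = 0.011). Of 13 tricarboxylic acid cycle genes 3 fell (MDH2, SUCLG1 and SUCLG2, 23.1%) and 1 rose (OGDH). Of 12 membrane transport genes 4 fell (VDAC1, VDAC3, TOMM20 and SLC25A5, 33.3%). Of 11 regulators of mitochondrial gene expression 1 fell, ESRRA, while PPARGC1A, NRF1, GABPA and TFAM did not pass. Limma called 0 of 4 electron carriers, of which 1 had an unadjusted p under 0.05, as did 47.7% of all genes tested. Of other abundant complexes, 32 of 78 mitochondrial ribosomal protein genes fell (41.0%, median -2.49) and 17 of 37 proteasome genes (45.9%, median -2.66). The cytosolic ribosomal protein genes had a median of -2.98 but only 7 of 85 fell (8.24%), below the 18.3% of all genes. With the hairpin, limma called 0 of the 89 genes in the first 5 of these lists. Of these, 16 had an unadjusted p under 0.05, as did 38.9% of all genes tested.

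The promoters of OXPHOS genes are known to bind the factors NRF1 and GABP, which contains an ETS protein, and both motifs were looked up in the 250 bases before and 50 after the start of each gene. RefSeq (GRCh38.p14, another build than that of the files) held an entry for 71 of the 88 genes. The NRF1 motif, GCGC, then any base, then TGCGC, on either strand, was found in 17 of 71 (23.9%), against 10.2% of 14655 genes of the tables, and the ETS motif CCGGAAG, on either strand, in 21 of 71 (29.6%), against 17.5%. With CM10, 8 of 16 tested OXPHOS genes with the NRF1 motif fell, against 23 of 53 without it, and over all genes 20.6% with the motif fell, against 18.2% without it. With the ETS motif 6 of 21 fell, against 25 of 48 without it, and over all genes 23.1% with the motif fell, against 17.2% without it. The median log2 fold changes of the OXPHOS genes were -2.82 with the ETS motif and -2.99 without it, and the differences by motif were not tested. A match says only that the letters are there. One window is shown for a gene that fell, one for the gene that rose most in TPM and one for a gene that was not called, with the motif in capitals, 5′ to 3′ on the strand of the gene.
NDUFA12, chr12:95003794-95003823 (-): acctagctctGCGCACGCGCagagccacca
NDUFA9, chr12:4649024-4649053 (+): ttcttggttaGCGCTTGCGCagacaggcga
COX4I1, chr16:85799686-85799715 (+): ggccttgctctCTTCCGGtcgcgggacacc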

How the data were processed

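RNA was sequenced in 12 libraries, and the extraction text of the labels speaks of tissue samples. The authors aligned reads to hg19 (HISAT) and estimated levels (RSEM), with both versions not given in the sources used here. The deposited TPM values come as 1 table of 6 libraries per experiment, and the unit was taken from column sums of 1000000 and from the methods, since no header names it. TPM holds no depth, so no counting interval is given, and each experiment was tested within its own table.

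Levels were fitted as log2(TPM + 1) with limma 3.58.1 in R 4.3.3 (1 term for group, empirical Bayes moderation with a mean trend), on all genes with TPM of at least 1 in at least 3 of 6 libraries (6 of 12 for the difference between experiments). P-values are two-sided and were adjusted by Benjamini-Hochberg over all genes tested, with calls at an adjusted p under 0.05. The script was tested on simulated data. Members and lists were chosen with earlier results of these data known. Named genes are, per comparison and direction, up to 8 called members with the smallest p, all of complex II, the 2 most abundant members of complexes I, III, IV and V, isoform pairs of complex IV, ATP5IF1, called differences, and members at 0 in a whole group with 20 TPM or more in its counterpart. All other names were picked with their values in view. The Alu-like search (BCYRN1 query, blastn) and its alternative, and the promoter search, were chosen after seeing the data. Alternatives were quantile normalization, no filter, a pseudocount of 0.1, removal of MTRNR2L genes, the replicate number as a block and each library left out. Replicate numbers did not pair the libraries. A gene and some sequences are not reported here.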

Additional observations from a re-analysis of the deposited data

How the results depend on the processing

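The numbers of called OXPHOS genes moved with most settings, while their direction moved little. With CM10 (39 calls, 47% of those tested, against 31.9% of all genes), quantile normalization gave 64 (77.1%, against 34%) and removal of MTRNR2L genes 72 (86.7%, against 54.9%). A pseudocount of 0.1 gave 11 (13.3%, against 15.7%), no filter on low values 2 (2.27%, against 4.57%), and removal of genes with an Alu-like segment, chosen after seeing the data, 0 of 70 (against 4.41%; 19 at an unadjusted p under 0.05), so in these 3 the share was below that of all genes. Leaving out single libraries gave between 16 (19.3%, against 18.9%) and 51 (61.4%, against 50.7%). With shZBTB7B (2 calls), quantile normalization and removal of MTRNR2L genes gave 0 (3 each at an unadjusted p under 0.05), against 0% of all genes. The fit with no filter gave 1 (1.14%, against 1.99% of all genes). A pseudocount of 0.1 gave 1 (1.2%, against 3.42%) and removal of Alu-like genes 1 (1.41%, against 7.96%). Leaving out single libraries gave 0 to 35. The 35, without shZBTB7B replicate 2, were 42.2%, against 51.4% of all genes, and the other such fits called 0% of all genes. The cause of these changes was not tested. The median over all genes, -1.004 with CM10 and -1.45 with shZBTB7B, was -0.51 and -0.56 after quantile normalization, -1.72 and -1.38 without MTRNR2L genes and -0.67 and -1.41 without Alu-like genes. Median fold changes of the OXPHOS genes kept their sign under all alternatives, at -3.78 to -1.87 with CM10 and -2.12 to -0.51 with shZBTB7B.

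With MTRNR2L genes removed, the log2 differences of the CM10 sums were -0.40 for complex I (0.55 with them), -1.24 for complex II (-0.29), -3.25 for complex III (-2.30) and -3.01 for complex IV (-2.06), and the fold changes of SDHA (-0.79) and COX7B (-0.44) turned negative. Leaving out single libraries turned the sign of genes that were not called: SDHA with CM10 ranged between -0.33 and 0.51, and with shZBTB7B the ranges were -1.34 to 0.23 for ATP5IF1, -1.28 to 0.64 for ATP5ME, -0.72 to 0.27 for ATP5MPL, -0.046 to 0.79 for NDUFA4 and -1.51 to 0.19 for UQCRH.

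With the replicate number as a block the counts were 43 and 2, and for the difference between the experiments 0. Same-numbered libraries did not deviate together (Pearson r of -0.073 to 0.034 over the 6 pairs), so the number was not taken as a pairing. Depth cannot be read from TPM, and genes near the filter are the least certain.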
